A study of Homo sapiens with 15 samples.

Results

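Tumor cells that invade tissue can build invadopodia, small feet of polymerized actin at which matrix is cleared by proteases. The 10 genes described here encode core parts of their actin machinery: the scaffolds Tks5 (SH3PXD2A) and Tks4 (SH3PXD2B), the kinase Src (SRC), cortactin (CTTN), N-WASP (WASL) with its partners WIP (WIPF1) and Nck1 (NCK1), fascin (FSCN1), cofilin (CFL1) and paxillin (PXN). They were taken by symbol from the deposited count table, in which all 10 were found among 18858 genes. In MDA-MB-231 cells with both YAP and TAZ knocked down, the RNA of the 2 scaffolds was 1.89-fold and 1.92-fold that of siControl cells, and SRC RNA was 1.40-fold. CTTN, WASL, WIPF1, NCK1, FSCN1, CFL1 and PXN did not pass the main test in the same comparison. Of these, WIPF1, FSCN1 and PXN passed in some alternative fits described at the end.

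MDA-MB-231 is an established human breast adenocarcinoma line of basal, mesenchymal-like character that forms invadopodia on gelatin. Cells were either untransfected (Control) or carried siRNA that targets no gene (siControl), siRNAs directed at YAP1 (siYAP), siRNAs directed at WWTR1, which encodes TAZ (siTAZ), or the latter 2 sets together (siYAP+TAZ, the co-knockdown). Knockdown lasted 48 h, and cells of all 5 groups then spent 5 to 6 h on gelatin before RNA extraction. Each group had 3 libraries, so every value rests on 1 cell line, and cells with both sets also received more siRNA in total. In bulk RNA, fewer cells of a kind and less RNA per cell cannot be told apart.

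In an invadopodium, Src phosphorylates Tks5 and cortactin at the plasma membrane. Tks5 and Tks4 are large adaptors with a PX domain that binds phosphoinositides and several SH3 domains that collect partners such as N-WASP and membrane proteases. N-WASP, held by WIP and recruited through Nck, activates the Arp2/3 complex to build branched actin. Cortactin stabilizes the branches, cofilin severs older filaments and makes new ends, and fascin bundles parallel filaments. Paxillin sits in the adhesion ring around the protrusion. YAP and TAZ are transcriptional co-activators of the Hippo pathway that act mostly through TEAD factors, and the comparison asks how RNA of this machinery differs when either or both are reduced.

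The siRNAs that define the groups are shown because any change in the 10 genes is read against them. They are the sense strands as listed by the study, and capitals mark the 7 bases that pair with the seed, bases 2 to 8, of the guide strand.
siControl 1: ugguuuacaugUCGACUAa
siYAP 1: gcaccuaucacUCUCGAGa
siYAP 2: gaacauagaagGAGAGGAg
siYAP 3: ccaccaagcuaGAUAAAGa
siYAP 4: ggucagagauaCUUCUUAa
siTAZ 1: aagccuagcucGUGGCGGa
siTAZ 2: aggaacaaacgUUGACUUa
siTAZ 3: ggacaaacaccCAUGAACa
siTAZ 4: gacaugagaucCAUCACUa
Full matches were sought only in the canonical transcripts of protein-coding genes of GENCODE 44. There, each of the 8 siRNAs against YAP or TAZ matched only YAP1 or only WWTR1, respectively. The single control sequence listed, from what the study calls a pool, matched none. Other transcripts were not searched. The marked 7 bases also occur in 3′ untranslated regions of members, sought in the same canonical transcripts. SH3PXD2B holds such stretches for 5 of the siRNAs (siYAP 1, siYAP 2, siYAP 4, siTAZ 2 and siTAZ 4), CTTN and WASL for 2 each, and SH3PXD2A, SRC, WIPF1 and FSCN1 for 1 each. NCK1, CFL1 and PXN hold none. Over 19936 genes, the share of such regions with a given stretch ran from 2.03% for siYAP 1 to 15.6% for siYAP 2 among the 8 targeting siRNAs and was 0.512% for the listed control siRNA, whose stretch is in no member, and a match of 7 bases is a description of the letters only.

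Total counts on genes lay between 18696737 and 30107312 per library. Normalized counts of YAP1 were 4202 to 4431 in siControl, 761 to 2764 in siYAP and 1796 to 2240 in siYAP+TAZ, and those of WWTR1 were 1579 to 1995 in siControl, 254 to 828 in siTAZ and 1123 to 1284 in siYAP+TAZ. No library went against its label, but only WWTR1 in siTAZ passed the test (adjusted p = 0.019 by edgeR). YAP1 had an adjusted p of 0.099 in siYAP and 0.072 in siYAP+TAZ by edgeR, and WWTR1 one of 0.20 in siYAP+TAZ. All siYAP+TAZ libraries held more WWTR1 RNA than all siTAZ libraries, by 1.13 on the log2 scale (adjusted p = 0.065 by edgeR, SE 0.31), which bears on every comparison of the co-knockdown with siTAZ and on the interaction. Its part in those results was not tested. The cell line's markers VIM, CD44, AXL, MSN, FN1 and LGALS1 were present at 340 to 1861 CPM (counts scaled to a common library total). PGR, FOXA1 and PTPRC had at most 7 counts, while GATA3 (17.9 to 28.7 CPM) and KDR (5.13 to 8.87 CPM), which were listed as near 0, were detected in all libraries. Their part in the results was not tested. ESR1, CDH1, ESRP1, CD3E, CD68, ALB and COL3A1 were not analysed here. Normalized counts below are counts scaled by the TMM-adjusted library size to the mean library, and a gene passed the test at an edgeR adjusted p of at most 0.05.

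SH3PXD2A, the gene of Tks5, rose in the co-knockdown and, less firmly, in siTAZ, and did not pass the test in siYAP. It lies on chromosome 10 (GRCh38, 103594027 to 103855584, minus strand) with 15 exons in its canonical transcript. It showed normalized counts of 1994, 1833 and 2264 in Control, 2181, 2123 and 1971 in siControl, 2092, 2415 and 2377 in siYAP, 2710, 2683 and 3195 in siTAZ, and 3517, 3920 and 4418 in siYAP+TAZ. All siYAP+TAZ libraries thus lay above every other library, and all siTAZ libraries lay above every Control, siControl and siYAP library. The mean in siYAP+TAZ was 3952 ± 451 (SD, n = 3) against 2092 ± 108 in siControl, a log2 fold change of 0.92 (adjusted p = 5.5e-06 by edgeR, SE 0.10). In siTAZ the log2 fold change was 0.45 (adjusted p = 0.020 by edgeR, SE 0.10), and in siYAP it was 0.13 (adjusted p = 0.66 by edgeR, SE 0.10). The siTAZ call did not survive the removal of siControl 17 (0.48), siControl 22 (0.46), siControl 27 (0.41), siTAZ 24 (0.50) or siTAZ 29 (0.37), with adjusted p up to 0.10.

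Set directly against each single knockdown, SH3PXD2A was higher in siYAP+TAZ than in siYAP by 0.78 on the log2 scale (adjusted p = 1.4e-04 by edgeR, SE 0.10) and higher than in siTAZ by 0.47 (adjusted p = 0.0088 by edgeR, SE 0.10). Both calls held when any single library was left out. The other neighbours in the order of means did not pass: Control, siControl and siYAP overlapped, and siYAP lay 0.32 below siTAZ (adjusted p = 0.14 by edgeR, SE 0.10). The excess of the co-knockdown over the sum of both single changes, the interaction of siYAP and siTAZ, was 0.33 on the log2 scale (adjusted p = 0.76 by edgeR, SE 0.14) and did not pass. The count covers the whole gene, so the long and short Tks5 isoforms cannot be told apart.

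SH3PXD2B, the gene of Tks4, was the lowest-expressed member and also rose in the co-knockdown. It lies on chromosome 5 (172325000 to 172454525, minus strand). It showed normalized counts of 99.9, 135 and 141 in Control, 117, 130 and 133 in siControl, 165, 163 and 205 in siYAP, 145, 164 and 161 in siTAZ, and 205, 198 and 324 in siYAP+TAZ. Every library of all 3 knockdowns lay above every Control and siControl library, and siYAP+TAZ 30 stood well above the other libraries of its group. The mean was 242 ± 71.0 (SD, n = 3) in siYAP+TAZ and 127 ± 8.38 in siControl, with a log2 fold change of 0.94 (adjusted p = 0.0012 by edgeR, SE 0.18). Without siYAP+TAZ 30 it was 0.67 and still passed, and without siYAP+TAZ 20 (1.04) or 25 (1.07) it exceeded 1. The single knockdowns had log2 fold changes of 0.48 (siYAP, adjusted p = 0.26 by edgeR, SE 0.18) and 0.30 (siTAZ, adjusted p = 0.46 by edgeR, SE 0.18). SH3PXD2B was higher in siYAP+TAZ than in siTAZ by 0.64 (adjusted p = 0.044 by edgeR, SE 0.18), a call lost without siTAZ 19, 24 or 29 or siYAP+TAZ 20 or 30, down to 0.37 without siYAP+TAZ 30. It was also lost with limma-voom (0.62, adjusted p = 0.057), with only both groups in the edgeR fit (0.64, adjusted p = 0.092) and without libraries 26 to 30 (0.39, edgeR adjusted p = 0.15). Against siYAP the difference was 0.46 (adjusted p = 0.15 by edgeR, SE 0.17), and it ran from 0.18 to 0.58 when single libraries were left out.

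SRC encodes the founding kinase of the Src family and lies on chromosome 20 (37344685 to 37406050, plus strand). It showed normalized counts of 1252, 1339 and 1704 in Control, 1401, 1443 and 1577 in siControl, 1632, 1636 and 1931 in siYAP, 1559, 1611 and 1701 in siTAZ, and 1957, 2100 and 2127 in siYAP+TAZ. The siYAP+TAZ libraries lay above all others, and the siYAP libraries lay above all siControl but not all Control libraries. The co-knockdown mean of 2062 ± 91.3 (SD, n = 3) stood against 1474 ± 91.9 in siControl, a log2 fold change of 0.48 (adjusted p = 0.0020 by edgeR, SE 0.10). Both single knockdowns stayed below the threshold, with log2 fold changes of 0.23 in siYAP (adjusted p = 0.34 by edgeR, SE 0.10) and 0.14 in siTAZ (adjusted p = 0.54 by edgeR, SE 0.10). SRC was higher in siYAP+TAZ than in siTAZ by 0.35 (adjusted p = 0.049 by edgeR, SE 0.10), and this call was lost without any 1 of the 6 libraries compared, with adjusted p from 0.085 to 0.13, and with limma-voom (adjusted p = 0.052). Against siYAP the difference was 0.25 (adjusted p = 0.16 by edgeR, SE 0.10).

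**Figure D1:**
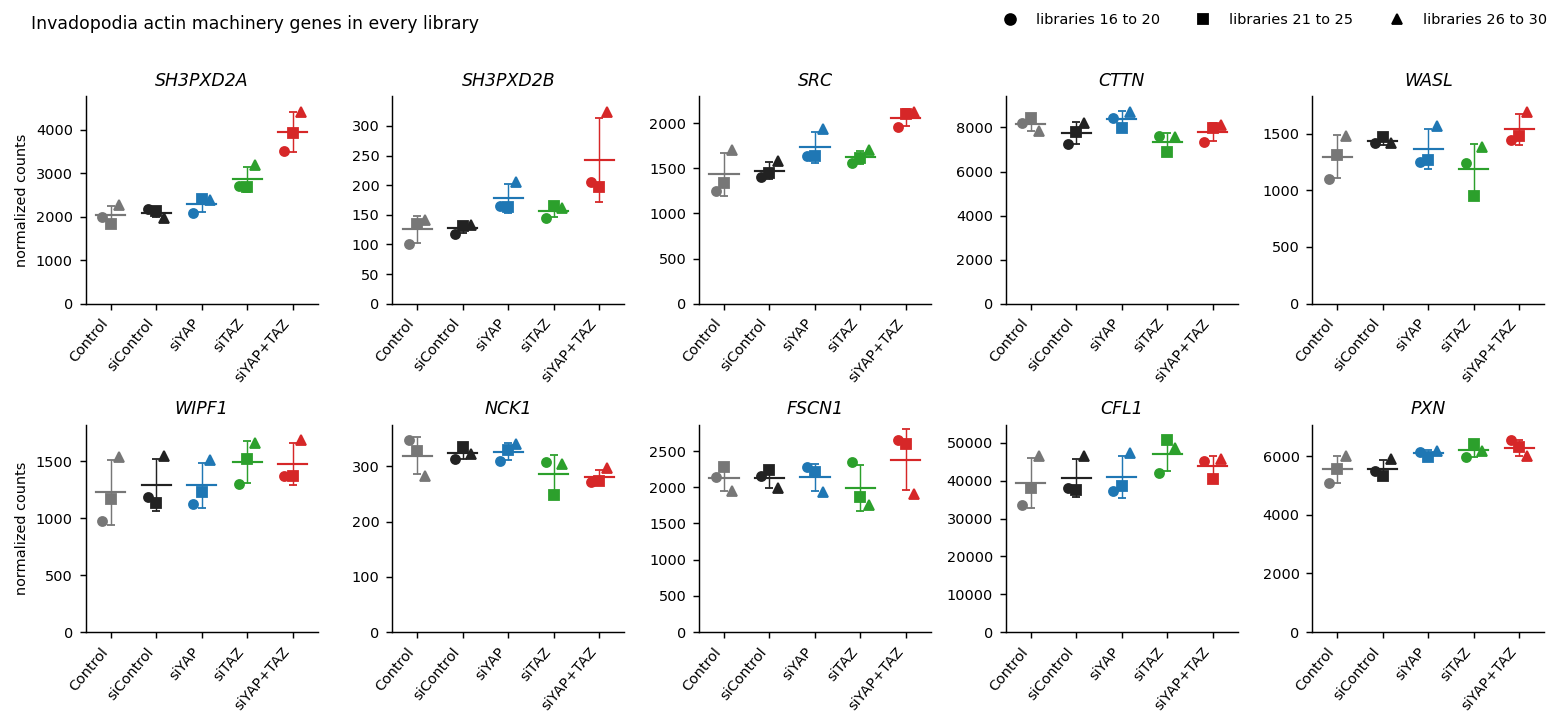
Normalized counts (vertical axes, from 0) of the 10 genes in every library of the 5 groups, with the mean and SD of 3 libraries per group as lines and marker shapes for runs of consecutive library numbers. The 3 siYAP+TAZ libraries of SH3PXD2A (3517 to 4418) and of SRC (1957 to 2127) lie above every other library, whereas CTTN stays between 6898 and 8716 in all 15.

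CTTN, which stabilizes Arp2/3 branches and is a substrate of Src, showed the narrowest range of the 10 genes. It lies on chromosome 11 (70398404 to 70436584, plus strand). It showed normalized counts of 7242, 7802 and 8225 in siControl and 7332, 7972 and 8091 in siYAP+TAZ, and over all 15 libraries the highest was 1.26 times the lowest. The groups overlapped throughout this comparison. The log2 fold change in the co-knockdown was 0.008 (adjusted p = 0.96 by edgeR, SE 0.07), with a 95% interval from -0.14 to 0.16. It was 0.11 in siYAP (adjusted p = 0.60 by edgeR, SE 0.07) and -0.08 in siTAZ (adjusted p = 0.67 by edgeR, SE 0.07). All siYAP libraries lay above all siTAZ libraries, a log2 difference of 0.18 that did not pass (adjusted p = 0.25 by edgeR, SE 0.07).

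The N-WASP module held no change that passed with all 15 libraries in a fit without a block by run. WASL (N-WASP, chromosome 7, 123681943 to 123749003, minus strand) had 1419, 1473 and 1416 normalized counts in siControl, 1253, 1271 and 1572 in siYAP, 1239, 952 and 1379 in siTAZ, and 1442, 1479 and 1694 in siYAP+TAZ. All siTAZ libraries lay below all siControl libraries, with a log2 fold change of -0.27 (adjusted p = 0.31 by edgeR, SE 0.13), while the co-knockdown stood at 0.10 (adjusted p = 0.65 by edgeR, SE 0.13). The interaction for WASL was 0.45 (adjusted p = 0.76 by edgeR, SE 0.18). Library siTAZ 24, with 952, was the lowest of all 15. When single libraries were left out, the WASL value in siTAZ against siControl ran from -0.39 to -0.14.

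WIPF1 (WIP, which holds and stabilizes N-WASP, chromosome 2, 174559572 to 174682916, minus strand) had 1186, 1131 and 1548 normalized counts in siControl and 1366, 1373 and 1685 in siYAP+TAZ. Libraries 26 to 30 were the highest of all 5 groups for this gene, at 1511 to 1685, and libraries 16 to 25 ran from 975 to 1516. The log2 fold changes were 0.20 in siYAP+TAZ (adjusted p = 0.49 by edgeR, SE 0.17), 0.00036 in siYAP (SE 0.17) and 0.21 in siTAZ (adjusted p = 0.61 by edgeR, SE 0.17). NCK1 (chromosome 3, 136862208 to 136951606, plus strand), the SH2 and SH3 adaptor that links phosphorylated Tks5 and cortactin to N-WASP, had 314, 335 and 322 in siControl and 271, 274 and 296 in siYAP+TAZ. All siYAP+TAZ libraries lay below all siControl libraries, and NCK1 was the only member with that order in the co-knockdown. Its log2 fold change was -0.20 (adjusted p = 0.21 by edgeR, SE 0.11). In siTAZ, with 308, 248 and 305, the log2 fold change was -0.17 (adjusted p = 0.47 by edgeR, SE 0.11).

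FSCN1 and CFL1 shape the filaments after nucleation. FSCN1 (fascin, chromosome 7, 5592816 to 5606655, plus strand) had 2153, 2235 and 1984 normalized counts in siControl, 2346, 1872 and 1751 in siTAZ, and 2652, 2595 and 1900 in siYAP+TAZ. Libraries 20 and 25 were the highest of all 15, while library 30 lay below every siControl library. The log2 fold change in the co-knockdown was 0.16 (adjusted p = 0.41 by edgeR, SE 0.12), and without siYAP+TAZ 30 it was 0.31 (edgeR adjusted p = 0.064). Of its 50-base stretches, 4.88% also occur in the pseudogene FSCN1P1, so reads from that part are uncertain.

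CFL1 (cofilin, chromosome 11, 65823022 to 65862026, minus strand) was the most abundant member. It had 38086, 37574 and 46604 normalized counts in siControl, 42114, 50740 and 48726 in siTAZ, and 45244, 40495 and 45614 in siYAP+TAZ. Groups overlapped, and libraries 26 to 30 were the highest in 4 of the 5 groups. Log2 fold changes were 0.10 in siYAP+TAZ (adjusted p = 0.63 by edgeR, SE 0.12), 0.01 in siYAP (adjusted p = 0.99 by edgeR, SE 0.12) and 0.21 in siTAZ (adjusted p = 0.43 by edgeR, SE 0.12). On the opposite strand, MUS81 and SNX32 cover 19.0% of its exonic bases, and whether reads were counted by strand is not given in the sources used here.

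PXN (chromosome 12, 120210439 to 120265771, minus strand) encodes the adhesion adaptor paxillin. It showed normalized counts of 5082, 5553 and 6011 in Control, 5495, 5307 and 5906 in siControl, 6150, 5961 and 6184 in siYAP, 5983, 6414 and 6183 in siTAZ, and 6542, 6292 and 6004 in siYAP+TAZ. All 9 knockdown libraries lay above all siControl libraries, but library 26 of Control, at 6011, lay within their range. The log2 fold changes were 0.17 in siYAP+TAZ (adjusted p = 0.10 by edgeR, SE 0.07), 0.13 in siYAP (adjusted p = 0.50 by edgeR, SE 0.07) and 0.15 in siTAZ (adjusted p = 0.29 by edgeR, SE 0.07). None passed. With scaling by library size only, the co-knockdown value was 0.22 and passed (edgeR adjusted p = 0.021). The antisense gene PXN-AS1 and 2 unnamed genes cover 27.2% of PXN's exonic bases on the opposite strand, and their reads cannot be told apart without a strand setting.

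Set side by side, 3 of the 10 genes were higher in siYAP+TAZ than in siControl and none was lower at the edgeR adjusted p of at most 0.05. Over all 18858 genes tested, 18.4% passed in either direction and 9.97% passed as higher, and among the 10640 genes averaging 100 normalized counts or more, which include all 10 members, 26.7% passed. The share of the members called in this comparison is therefore near the background. Under the study's rule, which also asks for a change of at least 1 in either direction on the log2 scale, no member passed in edgeR, DESeq2 or limma-voom, against 3.46% of all genes in edgeR. Of the 10, 4 had an unadjusted edgeR p under 0.05, as did 30.3% of all genes. The median log2 fold change was 0.17 over the members and -0.0048 over all genes, with 9 members above 0 and 1 below. The same split of 9 and 1 was seen in siYAP against siControl and in siControl against Control, so it is not particular to the co-knockdown. In 4 members (SH3PXD2A, SH3PXD2B, SRC and PXN) all siYAP+TAZ libraries lay above and in 1 (NCK1) all lay below the siControl libraries, and such separation in either direction was seen in 36.4% of all genes.

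The single knockdowns held fewer calls. In siYAP no member passed with edgeR, DESeq2 or limma-voom in fits without a block, where 0.933% of all genes passed with edgeR, and 2 members (SH3PXD2B and SRC) had an unadjusted edgeR p under 0.05, as did 11.9% of all genes. In siTAZ 1 member, SH3PXD2A, passed as higher, where 2.03% of all genes passed and 1.34% as higher. The median of the members was 0.06 in siYAP and 0.15 in siTAZ, and that of all genes was 0.0025 and 0. All siYAP libraries lay above all siControl libraries in 3 members (19.5% of all genes separated in either direction), and the siTAZ libraries lay above in 3 and below in 2 (20.9% of all genes). Neither siYAP nor siTAZ had a member past both thresholds, against 0.0955% and 0.212% of all genes.

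The comparisons with the co-knockdown as one side share its libraries, as those against siControl share the siControl libraries. Against siYAP, 1 member passed as higher, SH3PXD2A, where 5.13% of all genes passed and 3.43% as higher. Against siTAZ, 3 members passed as higher, SH3PXD2A, SH3PXD2B and SRC, where 5.44% of all genes passed and 3.06% as higher. Between siYAP and siTAZ no member passed with edgeR (0.642% of all genes), DESeq2 or limma-voom in fits without a block, and 2 members and 13.7% of all genes had an unadjusted edgeR p under 0.05. The interaction passed in no member with any of the 3 tools, where 0.0106% of all genes passed with edgeR and 2 members, SH3PXD2A and WASL, had an unadjusted p under 0.05, as did 5.85% of all genes. Between siControl and Control no member and 0% of all genes passed with edgeR, no member had an unadjusted p under 0.05 (2.11% of all genes), and DESeq2 and limma-voom called no member. The member log2 differences between these controls ran from -0.08 (CTTN) to 0.15 (WASL).

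**Figure D2:**
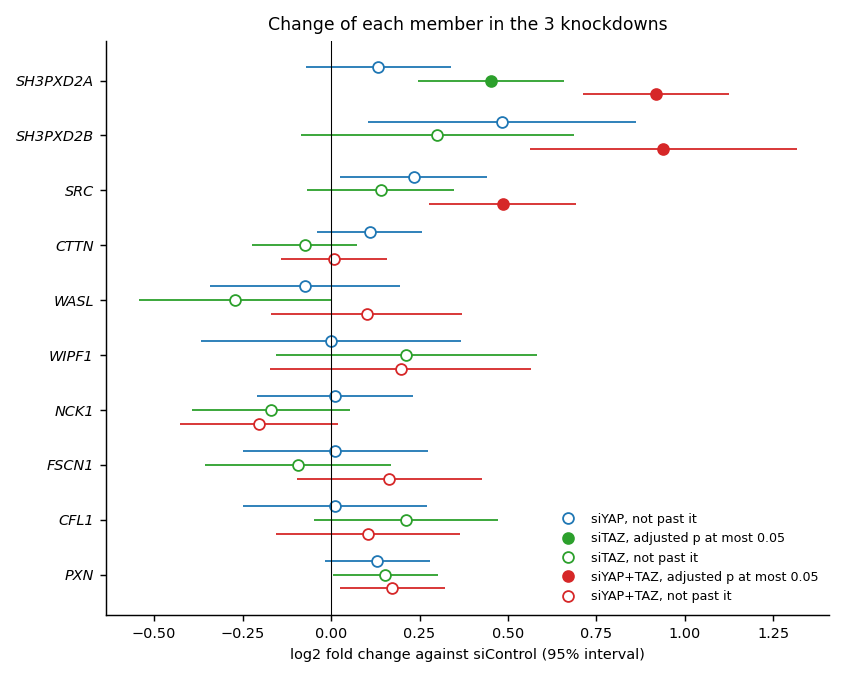
Log2 fold change of each gene against siControl (horizontal axis) with its 95% interval, for siYAP, siTAZ and siYAP+TAZ, filled where the edgeR adjusted p is at most 0.05. The intervals of SH3PXD2A (0.71 to 1.12), SH3PXD2B (0.56 to 1.32) and SRC (0.28 to 0.69) in siYAP+TAZ exclude 0, as does that of SH3PXD2A in siTAZ, the other filled point at 0.45. Some open points, such as PXN in siYAP+TAZ (0.02 to 0.32) and SH3PXD2B in siYAP (0.10 to 0.86), also have intervals clear of 0, since the intervals are not adjusted for the number of genes.

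Several members were higher or lower in libraries 26 to 30 than in the other libraries of their groups, so each co-knockdown library was also set against the siControl library of its run of consecutive numbers. What a run stands for is not stated in the labels. The log2 ratio of SH3PXD2A was 0.69, 0.88 and 1.16 in the runs starting at libraries 16, 21 and 26. That of SH3PXD2B was 0.80, 0.60 and 1.28, and that of SRC was 0.48, 0.54 and 0.43. These 3 genes were thus higher in every run. PXN (0.25, 0.25 and 0.024) and WASL (0.024, 0.0062 and 0.26) were also above 0 in every run, with at least 1 value close to 0. WIPF1 stood at 0.20, 0.28 and 0.12 and NCK1 at -0.21, -0.29 and -0.12, while CTTN, FSCN1 and CFL1 changed sign between runs. When libraries 26 to 30 were left out, an alternative chosen after the data were seen, 5 members passed in siYAP+TAZ: SH3PXD2A (0.80), SH3PXD2B (0.71), SRC (0.53), FSCN1 (0.27) and PXN (0.26). That fit called 19.9% of all genes. In siTAZ, SH3PXD2A (0.33) and WASL (-0.39) passed in it, where 4.68% of all genes did.

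**Figure D3:**
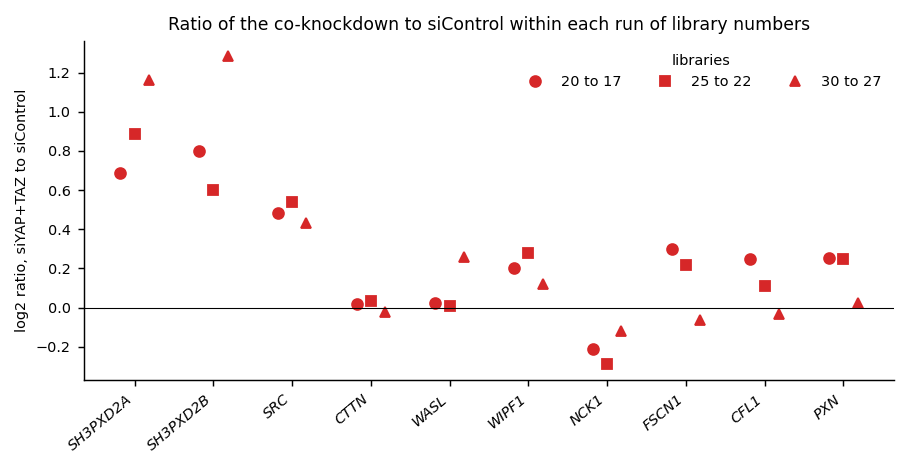
Log2 ratio of normalized counts (vertical axis) of each siYAP+TAZ library to the siControl library of the same run of library numbers, 1 point per run and gene. SH3PXD2A lies at 0.69 to 1.16 and SH3PXD2B at 0.60 to 1.28, while the 3 points of CTTN lie between -0.024 and 0.031.

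The members differed widely in level. As CPM per kilobase of exons, the siControl means were 294 ± 36.6 for CFL1, 47.2 ± 3.0 for CTTN, 31.6 ± 1.74 for PXN and 24.3 ± 1.46 for FSCN1 (SD, n = 3). WASL followed at 13.9 ± 0.31, SRC at 8.73 ± 0.54 and SH3PXD2A at 7.35 ± 0.38. WIPF1 stood at 3.50 ± 0.62, NCK1 at 2.48 ± 0.081 and SH3PXD2B at 0.65 ± 0.043. On this scale the SH3PXD2A level was 13.9 ± 1.58 in siYAP+TAZ, and that of SH3PXD2B was 1.24 ± 0.36. Tks5 RNA was thus the more abundant of the 2 in both groups. Divided by the longest transcript instead, CFL1 stood at 918, CTTN at 100.3 and WIPF1 at 11.5, which put WIPF1 above SH3PXD2A (7.69).

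Genes that work beside the members were described from 7 lists, chosen with earlier results of these data known. For ADAM19 and MMP14, the study had already reported higher protein in this co-knockdown. The rank of the list that holds them, the Tks partners, is therefore no independent result. Of the lists, the membrane partners of the Tks scaffolds had the highest share called and the highest median in the co-knockdown. Of them, 4 of 7 measured genes rose and none fell, with a median log2 fold change of 0.47 against -0.0048 over all genes. In this comparison 18.4% of all genes passed and 9.97% passed as higher, and the counts of the other lists below stand against the same shares. The called partners were the metalloprotease ADAM19 (0.83, adjusted p = 0.0054 by edgeR, SE 0.18), the membrane-type collagenase MMP14 (0.82, adjusted p = 2.3e-05 by edgeR, SE 0.10), NOXA1, an activator of NADPH oxidase (0.80, adjusted p = 0.0032 by edgeR, SE 0.17), and the oxidase subunit CYBA (0.42, adjusted p = 0.0017 by edgeR, SE 0.08). ADAM12 stood at 0.47 (adjusted p = 0.25 by edgeR, SE 0.26) and ADAM15 at -0.01 (adjusted p = 0.94 by edgeR, SE 0.07). MMP14 rose from a mean of 13701 to 24198 normalized counts.

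The Arp2/3 complex held no rise: 1 of 9 genes passed, ARPC5L, which fell by 0.32 on the log2 scale (adjusted p = 0.0027 by edgeR, SE 0.07). Of the 9 N-WASP activators and partners, TRIP10, an F-BAR protein that binds CDC42, fell by 0.21 (adjusted p = 0.019 by edgeR, SE 0.06), and CDC42 itself stood at -0.0055 (adjusted p = 0.97 by edgeR, SE 0.07). Of 14 genes of Src-family and cortactin signalling, 2 rose and 1 fell. PTK2B, the FAK-related kinase Pyk2, rose by 1.42 (adjusted p = 2.7e-04 by edgeR, SE 0.22) and BCAR1, the scaffold p130Cas, by 0.20 (adjusted p = 0.035 by edgeR, SE 0.06). ABL2, the kinase Arg that phosphorylates cortactin, fell by 0.55 (adjusted p = 5.2e-05 by edgeR, SE 0.07). PTK2B was the only gene of the 7 lists past both thresholds.

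In the cofilin cycle, 3 of 11 genes rose and 1 fell. The slingshot phosphatases, which activate cofilin, rose in 2 of 3 cases, SSH3 by 0.65 (adjusted p = 2.0e-04 by edgeR, SE 0.10) and SSH1 by 0.47 (adjusted p = 0.0041 by edgeR, SE 0.11), with SSH2 at 0.16 (adjusted p = 0.32 by edgeR, SE 0.10). LIMK2, a kinase that inactivates cofilin, fell by 0.31 (adjusted p = 0.024 by edgeR, SE 0.09), and LIMK1 stood at 0.20 (adjusted p = 0.56 by edgeR, SE 0.20). The cofilin relative DSTN rose by 0.31 (adjusted p = 0.014 by edgeR, SE 0.08). Of 8 genes of actin bundling and filament elongation, the filopodial motor MYO10 rose by 0.30 (adjusted p = 0.0059 by edgeR, SE 0.07) and the crosslinker ACTN1 fell by 0.25 (adjusted p = 0.034 by edgeR, SE 0.08). Of 11 genes of the paxillin family and its adhesion partners, the paxillin relatives TGFB1I1 (0.42, adjusted p = 9.4e-04 by edgeR, SE 0.08) and LPXN (0.43, adjusted p = 0.0496 by edgeR, SE 0.15) rose. LPXN only just passed, and its siYAP+TAZ and siControl libraries overlapped. In the study's wider actin machinery category without the members, 9 of 64 measured genes rose and 5 fell, near the 18.4% of all genes that passed, with a median of 0.04. Except for the Tks partners, the medians of the 7 lists lay between -0.12 and 0.16.

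**Figure D4:**
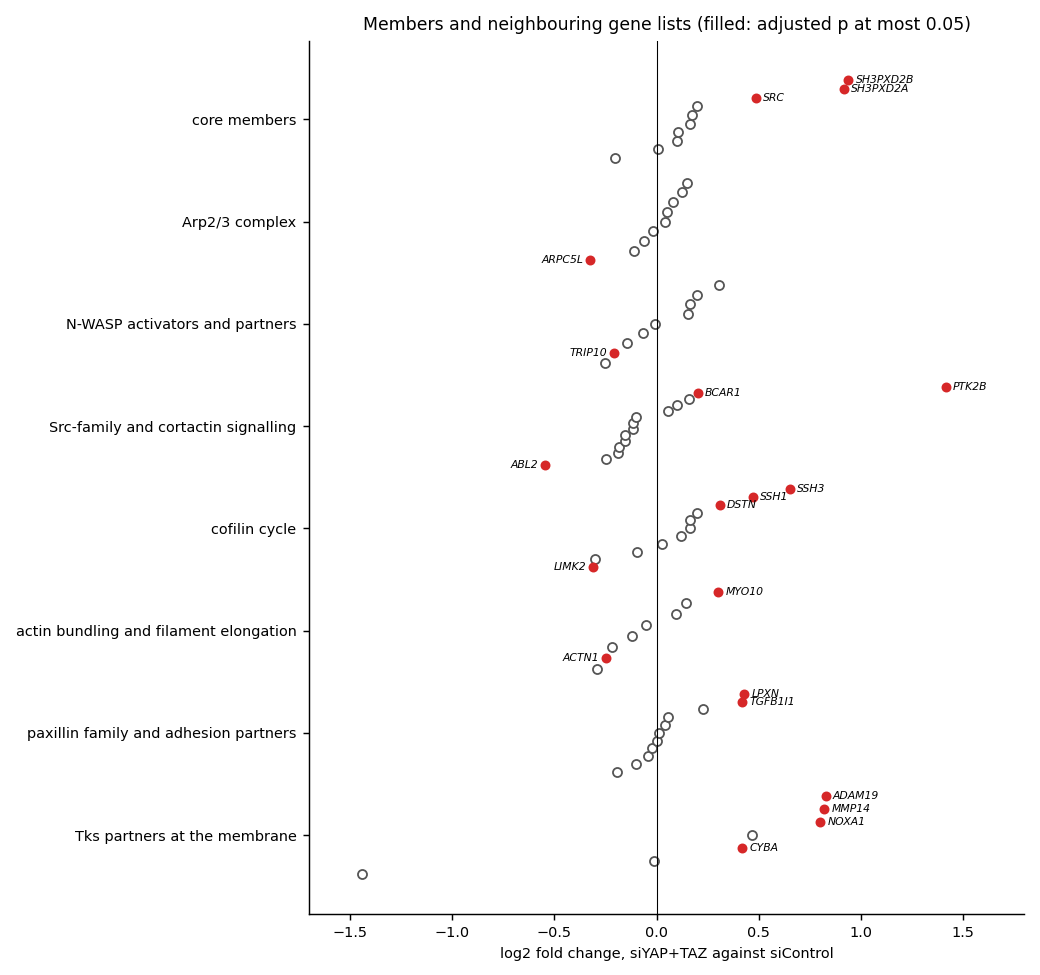
Log2 fold change in siYAP+TAZ against siControl (horizontal axis) of the 10 members and of each measured gene of 7 lists (rows), filled and named where the edgeR adjusted p is at most 0.05. In the row of Tks partners, 4 of 7 points are filled and lie at 0.42 to 0.83. The open point at -1.44 is NOX1, with a mean of 4.16 normalized counts in siYAP+TAZ and 11.6 in siControl.

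Across the 15 libraries, the genes whose log2 CPM followed that of SH3PXD2A most closely were TRIB2 (Pearson r = 0.973), RBM47 (0.967), DDR1 (0.967), TNFSF10 (0.966) and CCNG2 (0.964), out of 10639 genes averaging 100 normalized counts or more. The libraries of a group share their treatment, so these values describe the likeness of patterns only.

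RefSeq promoter windows of 300 bases (GRCh38.p14, 250 before to 50 after the start) were found for 7 of the members, in 16 windows. Windows of CTTN, SRC and FSCN1 were not used here. The main windows of the 2 scaffold genes are shown because both genes rose in the co-knockdown, with GC boxes (GGGCGG or CCGCCC) in capitals.
SH3PXD2A, minus strand, chr10:103855527-103855826: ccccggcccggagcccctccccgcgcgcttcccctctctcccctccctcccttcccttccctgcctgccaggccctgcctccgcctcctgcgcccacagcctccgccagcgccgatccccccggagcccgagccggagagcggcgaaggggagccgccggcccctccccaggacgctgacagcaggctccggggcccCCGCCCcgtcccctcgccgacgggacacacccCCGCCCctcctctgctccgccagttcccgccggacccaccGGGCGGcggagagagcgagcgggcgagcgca
SH3PXD2B, minus strand, chr5:172454476-172454775: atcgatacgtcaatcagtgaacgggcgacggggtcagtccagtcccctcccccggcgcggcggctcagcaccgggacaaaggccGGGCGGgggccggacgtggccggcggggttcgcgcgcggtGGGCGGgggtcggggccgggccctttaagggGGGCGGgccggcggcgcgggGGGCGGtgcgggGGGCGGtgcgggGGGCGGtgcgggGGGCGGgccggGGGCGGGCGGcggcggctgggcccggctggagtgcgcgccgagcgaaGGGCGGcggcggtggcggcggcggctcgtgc
The SH3PXD2B window holds 10 GC boxes, some of which overlap each other, and that of SH3PXD2A holds 3. A GC box was present in 10 of the 16 member windows and in 45.0% of 35116 promoters. The TEAD motif (GGAATG or CATTCC) was in neither window shown. It was in 1 of the 16 member windows, an alternative start of PXN, and in 14.0% of all promoters. The AP-1 motif TGANTCA was in 1 window, an alternative start of WIPF1, and in 7.71% of all, and the CArG box of SRF was in none and in 1.29% of all. Motifs were sought on both strands, and an absent match says only that the letters are not in these windows.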

How the data were processed

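Polyadenylated RNA of 15 MDA-MB-231 libraries was sequenced as single reads. The authors processed the reads with the UTAP pipeline, trimmed them with cutadapt, aligned them with STAR 2.4.2a to GRCh38 with GENCODE 34 and deposited raw counts per gene, which were used here. The deposited table also holds normalized signal, rlog values and the authors' own DESeq2 comparisons (fold changes and p-values), which were not used. The strand setting of the counting is not given in the sources used here.

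Groups were taken from the sample titles. Counts of all 18858 genes and 15 libraries were scaled by TMM (factors 0.943 to 1.03) and tested in one fit with edgeR 4.0.16 in R 4.3.3 (robust quasi-likelihood, 1 coefficient per group, 10 residual degrees of freedom), with Benjamini-Hochberg adjustment over all genes. Each gene reached 5 reads in 1 library or more, so none was removed. Standard errors were derived from the F statistics. The legend of the study's RNA sequencing table gives 3 independent sets of experiments without naming their libraries. Taken over the genes as a whole, replicates within groups differed by more than sampling noise. Coordinates and exons came from GENCODE 44, in which 83.2% of the genes matched by name, and promoters from RefSeq. On simulated counts for siYAP+TAZ against siControl (18490 genes), edgeR recovered 29 of 67 genes changed by 0.5 on the log2 scale, 61 of 67 changed by 1 and 62 of 66 changed by 1.5, with 9 unchanged genes called. The changed genes were a far smaller share than the 18.4% that passed in the data, and could have lower counts than any member. The adjustment is stricter when fewer genes change, so these rates are not those to expect for the members.

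The members, the 7 lists and the markers were chosen with earlier results of these data known. All members, the siRNA targets, up to 3 called genes per list with the largest change and the 5 genes most like SH3PXD2A were named by rule, and other genes after their values were seen. As alternatives, limma-voom 3.58.1 and DESeq2 1.42.0 (set as by the authors) were run, as were DESeq2 size factors, library size only, at least 10 reads in at least 3 libraries, filterByExpr, only the groups compared, Control as reference, a block by run of library numbers, and leaving out each library. With no more than 3 libraries per group, precision is limited by their spread, and for members with low counts such as SH3PXD2B also by depth.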

Additional observations from a re-analysis of the deposited data

How the results depend on the processing

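Of the calls against siControl, SH3PXD2A, SH3PXD2B and SRC in siYAP+TAZ passed in every alternative and without every single library. PXN and WIPF1 also passed with the block by run (replicate block), and FSCN1 and PXN without libraries 26 to 30, so that each of these fits called 5 members, where they called 28.6% and 19.9% of all genes. Same-run libraries deviated together with a median correlation of 0.47 over 30 pairs, against -0.40 over 60 pairs from other runs. The second value is partly forced, since deviations from a group mean sum to 0 within each group. The lowest same-run value was -0.066. The titles repeat the 5 groups in the same order in each run but do not say what a run shares, so the block is given here only. A fit without the block takes no account of any pairing by run. With the block, 2 members passed in siYAP (SH3PXD2B, 0.48, and SRC, 0.23), 2 in siTAZ, 3 against siYAP, 5 against siTAZ and 1 between siYAP and siTAZ (SH3PXD2A, -0.32). The shares of all genes it called in these 5 comparisons were 6.1%, 10.3%, 14.6%, 14.8% and 7.32%, each above the share without the block. Without libraries 26 to 30, 2 passed in siTAZ, 2 against siYAP and 4 against siTAZ, where WASL (0.42) and FSCN1 (0.32) were gained and SH3PXD2B was lost, beside 4.68%, 7.76% and 7.51% of all genes. With limma-voom, 1 passed against siTAZ (5.31% of all genes). When single libraries were left out, the number of members called ran from 0 to 1 in siTAZ and from 1 to 2 against siTAZ. The second member was SH3PXD2B without siYAP+TAZ 25 and FSCN1 without siYAP+TAZ 30 (0.41, edgeR adjusted p = 0.043). The number past both thresholds in siYAP+TAZ ran from 0 to 1 (SH3PXD2B). Shares of all genes were not computed for the fits without a single library, so their counts cannot be set against a background. The cause was not tested.

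Values that changed sign were all near 0 and not called. With Control as the reference, CTTN in siYAP+TAZ was -0.067 and WASL in siYAP 0.073. Without libraries 26 to 30, NCK1 in siYAP was -0.0084. Leaving out single libraries, CTTN in siYAP+TAZ ran from -0.033 to 0.052, and in siYAP WIPF1 ran from -0.13 to 0.15, NCK1 from -0.019 to 0.048, FSCN1 from -0.038 to 0.080 and CFL1 from -0.11 to 0.12. No called value changed sign in any alternative. On simulated counts, 29 of 67 changes of 0.5 on the log2 scale were recovered. Far fewer genes were changed there than passed in the data, and the adjustment is stricter when fewer genes change. That rate is thus not the one to expect for the members. Smaller changes, such as those of PXN, NCK1 and WIPF1, were not simulated.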
